A study of Mus musculus with 4 samples.

Results

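The carbonic anhydrase family was described in the stomachs of mice that overexpress *c-Myc* in the parietal cell lineage. The 9 members were taken by symbol (*Car1*, *Car2*, *Car3*, *Car4*, *Car8*, *Car9*, *Car12*, *Car13* and *Car14*) from a table of read counts on 46095 mouse genes. RNA of the stomach was sequenced from 2 WT and 2 MYC-KI samples of the strain C57BL/6 at 12 weeks of age. The MYC-KI samples had the genotype *Atp4b-cre; MycOE*, in which Cre recombinase made from the *Atp4b* promoter switches on a human *c-Myc* transgene in parietal cells and their lineage. The WT samples were the *Myc fl/fl* littermates, which carry the floxed allele without Cre. The transgene is thus limited to 1 cell lineage, whereas the RNA came from whole gastric tissue, and in such bulk samples fewer cells of a type and less RNA per cell cannot be told apart.

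Carbonic anhydrases are zinc enzymes that interconvert carbon dioxide and water with bicarbonate and protons. In the parietal cell the reaction supplies the protons that the H+/K+-ATPase secretes and the bicarbonate that leaves the cell across the basolateral membrane in exchange for chloride, and in surface mucous cells it serves the bicarbonate of the mucus layer. *Car1*, *Car2*, *Car3* and *Car13* encode cytosolic enzymes, *Car4* an enzyme held at the cell surface by a lipid anchor, *Car9*, *Car12* and *Car14* transmembrane enzymes with the catalytic domain outside the cell, and *Car8* a cytosolic relative without enzymatic activity.

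The coding sequence around the zinc site is shown for the 5 members on which the results turn, because it separates *Car8* from the catalytic members. Each stretch holds 30 coding bases on the sense strand from GENCODE M21 transcripts (build GRCm38), and capitals mark the histidine codons of the pair that holds the zinc ion together with a further histidine. *Car2* lies at chr3:14895057-14895086 (plus strand, exon 3), *Car3* at chr3:14866838-14866867 (plus, exon 3), *Car9* at chr4:43508952-43508981 (plus, exon 4), *Car12* at chr9:66747635-66747664 (plus, exon 4) and *Car8* at chr4:8221604-8221633 (minus, exon 3).
Car2: ttgatccagtttCACtttCACtggggctca
Car3: cttcgccaattcCATcttCACtggggctcc
Car9: gccttgcagttgCATctaCACtggggaact
Car12: gcagagcagctgCACttgCACtgggggaac
Car8: ctgtatgaagttagatttCACtggggaaga
Both codons of the pair were found in all 8 of the other members, and 1 of the 2 was found in *Car8*. The coding sequences ranged from 260 codons in *Car2* and *Car3* to 437 codons in *Car9*.

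In the deposited table the counts of both MYC-KI columns did not stand beside their own gene names, and they were assigned in row order to the names sorted by character code, which moved the counts of each member by 6 rows. Over the 61 rows around each member, the correlation between the log counts of the genotypes was 0.973 to 0.977 after this step and at most 0.033 when the columns were moved by up to 3 rows from it. Across all genes it was 0.984, against 0.526 as deposited. All values below come from the re-sorted table. As deposited, the MYC-KI counts beside *Car9* are those of *Car4*, and those beside *Car8* are those of *Car3*.

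The libraries held 30260305 to 41463647 counts. Levels are given as CPM, for which each count was divided by its library total and TMM factor. The labels used here do not say whether the samples of a genotype are separate animals, and p-values measure the spread between these samples, which may in part be technical. Of the genes that define gastric tissue, *Atp4a* of parietal cells and *Pgc* of chief cells were detected in all 4 libraries. Counts of mouse *Myc* were 1062 and 759 in WT libraries and 735 and 1091 in MYC-KI libraries. Its log2 fold change was -0.35 (SE 0.14, adjusted p = 0.163 in edgeR), so mouse *Myc* was not called. The table held no row for the human transgene. The paper reports *c-Myc* overexpression in the stomach from RT-qPCR and western blotting. WT replicate 2 stood apart by sex, with 17846 counts of *Xist* and 5 of *Ddx3y*, against 85 to 201 and 1861 to 2623 in the other libraries, so the WT libraries came from different animals, and the omission of replicate 2 gives the comparison within 1 sex. No such difference separated the MYC-KI libraries. MYC-KI replicate 2 carried more RNA of skeletal muscle and forestomach. Summed skeletal muscle markers (such as *Acta1* and *Myh1*) stood at 1399 CPM against 24.8 to 157 in the other libraries. Forestomach squamous markers (*Krt13* and *Krt4*) stood at 4543 CPM against 931 to 2669.7. Intestinal epithelium markers (led by *Apoa1* and *Alpi*) summed to 2654 and 1716 CPM in WT and to 2076 and 345 CPM in MYC-KI. This sum was thus lowest in MYC-KI replicate 2.

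Across the family, *Car12* rose 3.09-fold and *Car9* fell 2.59-fold in MYC-KI stomachs, while the other 6 members tested passed no call. *Car2*, the most abundant member, was 1.23-fold lower and was not called. *Car1* had no counts in any library, which allows up to 3 counts or 0.0672 to 0.108 CPM per library, and it did not pass the filter on low counts. Calls required a change of more than 1.5-fold in either direction together with an adjusted p below 0.05 in edgeR's quasi-likelihood test over 17643 genes. Of the 8 members tested, 1 was called higher (12.5%), against a background of 5.65% of all genes tested, and 1 was called lower (12.5%), against 5.08%. The median log2 fold change was -0.44 over these members and 0.01 over all genes tested. The MYC-KI libraries did not overlap the WT libraries in 7 members, 2 of them higher and 5 lower, against backgrounds of 33.3% of genes higher and 31.5% lower.

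**Figure D1:**
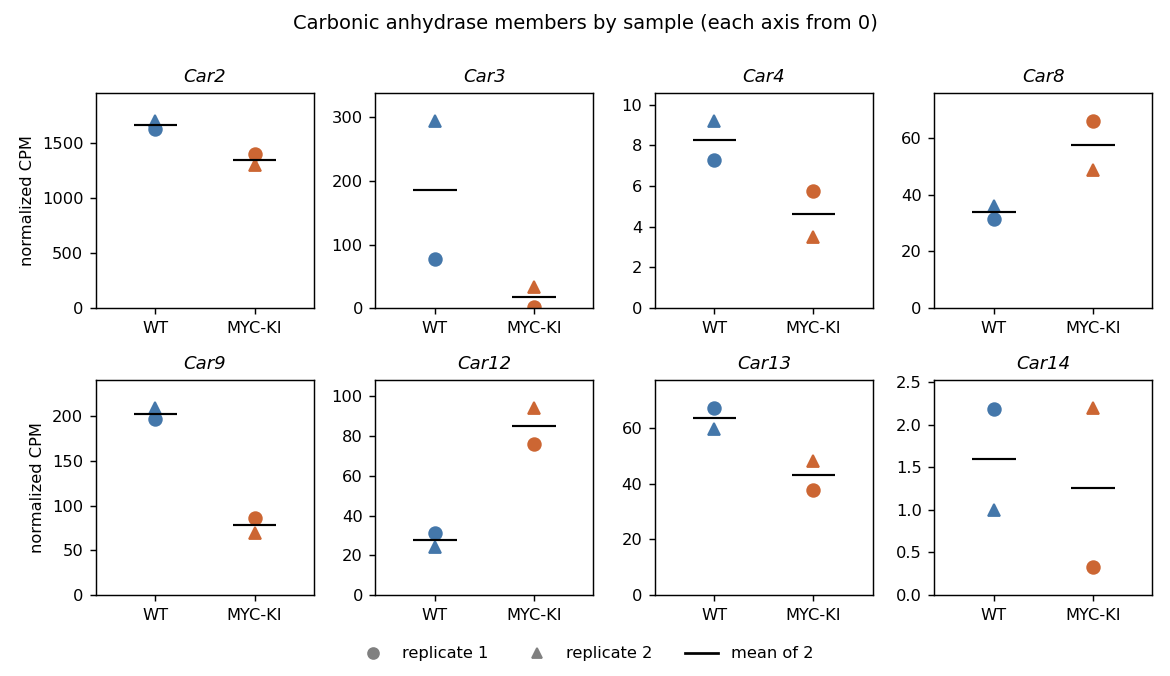
Normalized CPM of the 8 detected members in each library, with a linear axis from 0 in each panel; circles are replicate 1, triangles replicate 2 and lines the mean of 2. *Car12* lay at 24 to 31.1 CPM in WT and 76.2 to 94 in MYC-KI, *Car9* at 197 to 209 and 70 to 86.8, and *Car14* overlapped between the genotypes.

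Among the cytosolic enzymes, *Car2* (chr3:14886273-14900770) encodes the fast isoform that is abundant in parietal and surface mucous cells. It was measured at 1631 and 1700.4 CPM in the WT libraries and at 1398 and 1299.9 CPM in the MYC-KI libraries. Both MYC-KI libraries thus lay below both WT libraries, by a margin that was small against the level. The means were 1666 ± 49.4 and 1349 ± 69.6 CPM (SD, n = 2), with a log2 fold change of -0.30 (SE 0.10, 95% interval -0.58 to -0.03), and the difference did not pass edgeR's test over all genes (adjusted p = 0.12). In DESeq2 *Car2* passed on p (-0.31, adjusted p = 0.0272) and stayed short of the fold change threshold. The lower bound of the edgeR interval (-0.58) was close to that threshold. Over all alternatives that used the re-sorted names the log2 fold change of *Car2* ranged from -0.36 to -0.08.

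The small change of *Car2* stood beside a far larger one of the proton pump. *Atp4a*, the catalytic subunit of the H+/K+-ATPase, fell 48-fold, from 7816 ± 188 to 163 ± 34.4 CPM (adjusted p = 0.00884). The count ratio of *Car2* to *Atp4a*, which needs no scaling between libraries, was 0.212 and 0.214 in WT and 10.1 and 6.95 in MYC-KI. The ratio did not overlap between the genotypes, with an exact two-sided permutation p of 0.333, the smallest that 2 samples against 2 can give (0.417 adjusted over the 5 ratios compared in all). The parietal marker sum was 12298 and 12508 CPM in WT and 542 and 561 CPM in MYC-KI, and the surface mucous marker sum (led by *Gkn2* and *Gkn1*) was 50964 and 60811 CPM against 17547 and 20549.5 CPM. The part of these cell types in the level of *Car2* was not tested.

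*Car13* (chr3:14641727-14663002), a further cytosolic enzyme of broad tissue distribution, was measured at 67.1 and 59.8 CPM in WT and at 37.9 and 48.1 CPM in MYC-KI. Both MYC-KI values lay below both WT values. The log2 fold change was -0.56 (SE 0.15, 95% interval -0.96 to -0.16) with an adjusted p of 0.0799 in edgeR, and it was called when MYC-KI replicate 2 was left out (-0.74, adjusted p = 0.036). In DESeq2 (-0.57, adjusted p = 0.0165) and with no filter on low counts (-0.55, adjusted p = 0.0472) *Car13* passed on p and stayed short of the fold change threshold. The count ratio of *Car13* to *Car2* was 0.0411 and 0.0352 in WT and 0.0271 and 0.037 in MYC-KI, which overlapped (exact two-sided permutation p = 0.667, unchanged by adjustment).

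*Car3* (chr3:14863512-14872523), the slow isoform known from skeletal muscle and fat, differed by a larger ratio between the libraries of a genotype than any other detected member. Its counts were 2567 and 8198 in the WT libraries (76.5 and 294 CPM) and 59 and 1481 in the MYC-KI libraries (1.74 and 33.2 CPM). Both MYC-KI libraries were below both WT libraries, yet the libraries of each genotype lay far apart. The log2 fold change was -3.40 (SE 1.49, 95% interval -7.40 to 0.60; adjusted p = 0.194 in edgeR). Without MYC-KI replicate 2 it was -6.73 and passed (adjusted p = 0.0412), whereas it was -2.48 without MYC-KI replicate 1 (adjusted p = 0.159), -4.07 without WT replicate 1 (adjusted p = 0.342) and, within 1 sex, -2.13 without WT replicate 2 (adjusted p = 0.554).

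Markers of fat moved with *Car3*. The sum of 8 adipocyte markers was 190.4 and 487 CPM in WT and 34.3 and 57.3 CPM in MYC-KI, so that its order over the 4 libraries was that of *Car3*. All 8 adipocyte markers were lower in both MYC-KI libraries (background 31.5%), and 2 of them were called (background 5.08%). *Adipoq*, the fat cell hormone, was at 461 and 1557 counts in the WT libraries and at 0 and 80 in the MYC-KI libraries. The sum of 12 skeletal muscle markers was 157 and 112 CPM in WT and 24.8 and 1399 CPM in MYC-KI, and in MYC-KI replicate 2 it exceeded that of all other libraries while *Car3* did not. Their part in the levels of *Car3* was not tested.

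**Figure D2:**
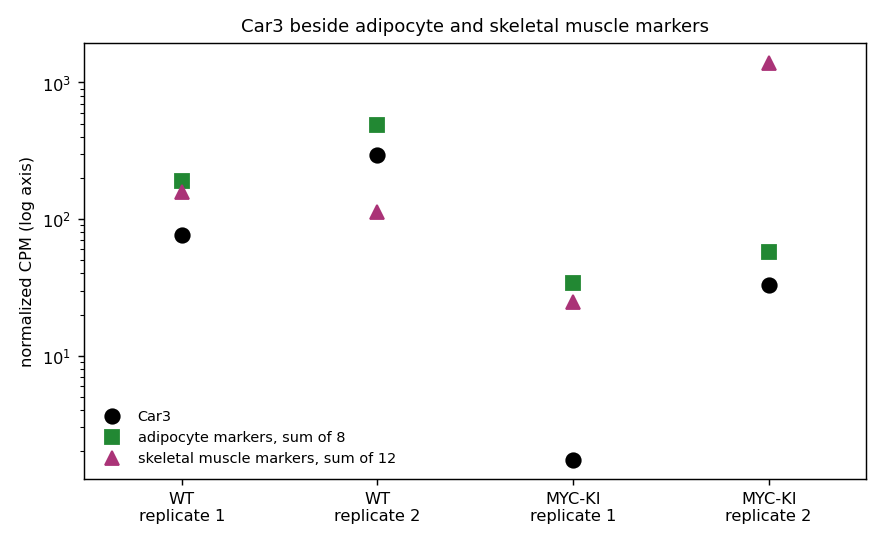
Normalized CPM of *Car3* and summed CPM of 8 adipocyte and 12 skeletal muscle markers in each library, on a log axis. *Car3* was highest in WT replicate 2 (294 CPM, adipocyte sum 487) and lowest in MYC-KI replicate 1 (1.74 CPM, adipocyte sum 34.3), and the skeletal muscle sum reached 1399 CPM in MYC-KI replicate 2.

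*Car1* (chr3:14766216-14808368), the isoform of red blood cells and colonic epithelium, was listed at 0 in every library although red blood cell RNA was present. The sum of 11 red blood cell markers, led by *Hba-a1* and *Hbb-bs*, was 263 and 96.2 CPM in WT and 27.1 and 30.3 CPM in MYC-KI. Of the 8 of these markers that were tested, 3 were called lower (background 5.08%). *Car13*, *Car1*, *Car3* and *Car2* lie in this order within 259.0 kb of chromosome 3, with gaps of 103.2, 55.1 and 13.7 kb between neighbours. Their levels did not follow this order, since the undetected *Car1* lies between *Car13* and *Car3*.

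Among the membrane-bound enzymes, *Car9* (chr4:43506966-43513729), a surface enzyme of the gastric epithelium that hypoxia induces in many tumours, was covered by 6621 and 5827 counts in the WT libraries and by 2944 and 3127 in the MYC-KI libraries. These were 197 and 209 CPM against 86.8 and 70 CPM, and both MYC-KI libraries lay below both WT libraries. The means were 203 ± 8.19 and 78.4 ± 11.9 CPM (n = 2), with a log2 fold change of -1.37 (SE 0.13, 95% interval -1.73 to -1.02), and *Car9* was called lower (adjusted p = 0.0195 in edgeR). Within 1 sex, without WT replicate 2, the log2 fold change was -1.33 (adjusted p = 0.232). Its exons share 214 bases with the antisense gene *Gm12454*, which is not in the table, and the strand setting of the counting is not given in the sources used here.

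*Car12* (chr9:66713686-66766845), a transmembrane enzyme of many secretory epithelia, changed in the opposite direction. Its counts were 1045 and 669 in the WT libraries and 2584 and 4200 in the MYC-KI libraries, which were 31.1 and 24 CPM against 76.2 and 94 CPM. Both MYC-KI libraries exceeded both WT libraries. The means were 27.6 ± 5.06 and 85.1 ± 12.6 CPM (n = 2), with a log2 fold change of 1.63 (SE 0.18, 95% interval 1.13 to 2.12), and *Car12* was called higher (adjusted p = 0.0218 in edgeR). Within 1 sex, without WT replicate 2, it was 1.45 (adjusted p = 0.232).

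The calls of *Car9* and *Car12* needed both WT libraries. Without WT replicate 1 the log2 fold changes were -1.41 and 1.83 (adjusted p = 0.196 each), and edgeR called 0 of all genes without either WT library, with 3554 and 3410 genes at an unadjusted p under 0.05 without replicate 1 and replicate 2. Over the alternatives with re-sorted names the log2 fold change stayed between -1.54 and -1.15 for *Car9* and between 1.45 and 1.85 for *Car12*. Markers of several cell types moved with *Car9* and *Car12*. Of the parietal markers 9 of 10 were called lower (background 5.08% for this and the next lists), of the chief cell markers (led by *Pgc* and *Chia1*, with *Lipf* at 0 in every library) 5 of 6 tested, with sums of 84864 and 80523 CPM in WT and 1199 and 1519.8 CPM in MYC-KI, of the surface mucous markers 6 of 7, and of the endothelial markers (led by *Pecam1* and *Kdr*) 6 of 7 tested, with sums of 417 and 395 CPM in WT and 171 and 164 CPM in MYC-KI. Of the mucous neck and metaplasia markers 4 of 8 were called higher (background 5.65%). Their sums were 12699 and 15434 CPM in WT and 27793 and 15441 CPM in MYC-KI. The most abundant of them, *Tff2* and *Muc6*, overlapped between the genotypes relative to library depth. Counts of *Tff2* were 185435 and 180544 in WT and 418587 and 223339 in MYC-KI. Those of *Muc6* were 145563 and 159654 in WT and 250075 and 163794 in MYC-KI. The part of all these cell types in the changes of *Car9* and *Car12* was not tested.

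The count ratio of *Car12* to *Car9* was 0.158 and 0.115 in WT and 0.878 and 1.34 in MYC-KI. The difference was 3.01 on the log2 scale (exact two-sided permutation p = 0.333, adjusted 0.417). These members were called in opposite directions, so the separation of their ratio restates the calls and adds no further evidence. The ratio of *Car2* to *Car9* was 8.26 and 8.14 in WT and 16.1 and 18.6 in MYC-KI, with the same p. In MYC-KI replicate 2, unlike the other 3 libraries, more reads were counted on *Car12* than on *Car9*.

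**Figure D3:**
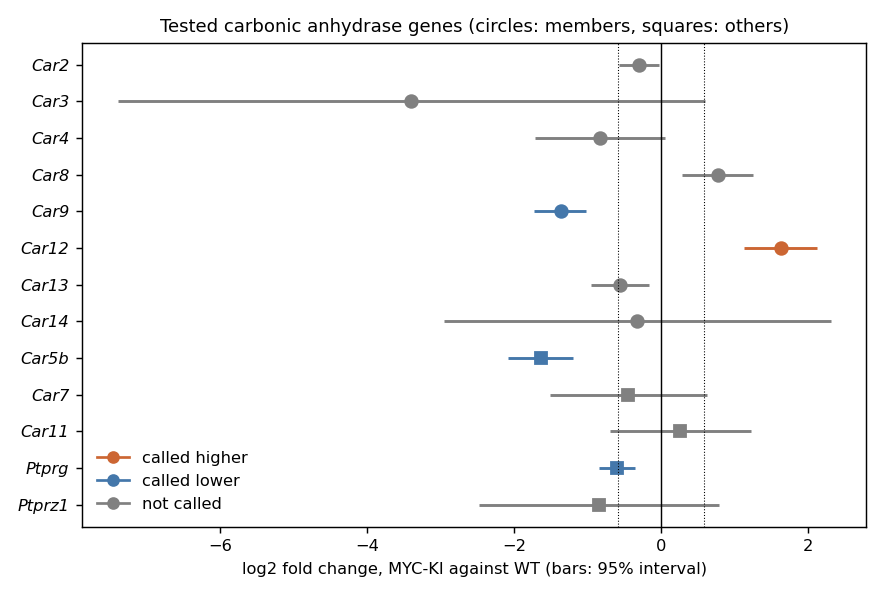
Log2 fold change of MYC-KI against WT for the 8 members tested (circles) and 5 other genes of the family (squares), with 95% intervals as bars and the fold change threshold as dotted lines. *Car12* (1.63) was called higher, *Car9* (-1.37), *Car5b* (-1.64) and *Ptprg* (-0.60) were called lower, and the intervals of *Car3* and *Car14* were the widest.

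*Car4* (chr11:84957786-84966044), the lipid-anchored enzyme, was at a low level, at 245 and 256 counts in the WT libraries and 195 and 157 in the MYC-KI libraries. The MYC-KI libraries, at 5.75 and 3.51 CPM, lay below the WT libraries, at 7.3 and 9.18 CPM. The log2 fold change of -0.83 (SE 0.33, 95% interval -1.72 to 0.05) did not pass edgeR's test (adjusted p = 0.163).

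*Car14* (chr3:95897768-95904691), a transmembrane enzyme, was the detected member with the lowest mean level, at 73 and 28 counts in the WT libraries and 11 and 98 in the MYC-KI libraries. The genotypes overlapped, and the lowest and the highest count both came from MYC-KI. The log2 fold change was -0.33 (SE 0.98, 95% interval -2.96 to 2.31; adjusted p = 0.846 in edgeR), and its sign turned without WT replicate 1 (0.34) and without MYC-KI replicate 1 (0.46). Its exons share 445 bases with *Aph1a* on the opposite strand, which had 1801 to 3118 counts, so without a known strand setting the counts of *Car14* are uncertain.

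*Car8* (chr4:8143362-8239041), the acatalytic relative whose protein binds the inositol trisphosphate receptor in cerebellar Purkinje cells, was covered by 1056 and 1004 counts in the WT libraries and by 2232 and 2182 in the MYC-KI libraries. These were 31.5 and 36 CPM against 65.8 and 48.8 CPM, without overlap. The means were 33.7 ± 3.2 and 57.3 ± 12 CPM (n = 2), with a log2 fold change of 0.77 (SE 0.18, 95% interval 0.28 to 1.25), and the adjusted p of 0.063 in edgeR missed the threshold. *Car8* passed in DESeq2 (0.76, adjusted p = 0.00535), with library size alone (0.99, adjusted p = 0.0306), with no filter on low counts (0.78, adjusted p = 0.0183) and without MYC-KI replicate 2 (0.97, adjusted p = 0.0249). The count ratio of *Car8* to *Car9* was 0.159 and 0.172 in WT and 0.758 and 0.698 in MYC-KI, again without overlap and with the same p.

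Levels were compared between members after division by the length of the merged exons (CPM per kb). *Car2* led in both genotypes, at 673 and 702 CPM per kb in WT and 577 and 537 in MYC-KI, and held 74.8% to 81% of the summed level of the 9 members in WT and 85.6% to 87.2% in MYC-KI. The summed level itself was lower in MYC-KI, at 662 and 627 CPM per kb against 832 and 939 in WT, and the share of *Car3* was 3.21% and 10.9% in WT and 0.0917% and 1.84% in MYC-KI, so the larger share of *Car2* came with a lower level of *Car2*. *Car9* came next, at 85.6 and 90.7 CPM per kb in WT and 37.7 and 30.4 in MYC-KI. In WT its values overlapped those of *Car3* (26.7 and 103), whose values also overlapped those of *Car13* (29.2 and 26), and *Car8* (8.17 and 9.34) followed apart from them. *Car4* (3.71 and 4.67) and *Car12* (4.1 and 3.16) could not be ordered in WT.

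In MYC-KI the order changed around *Car12*. *Car13* (16.5 and 20.9 CPM per kb) and *Car8* (17.1 and 12.7) overlapped, *Car12* (10 and 12.4) lay just below them, and *Car3* (0.607 and 11.6) overlapped *Car12*, *Car4* (2.92 and 1.79) and *Car14*. *Car14* had the lowest mean of the detected members in each genotype, at 0.395 to 0.855 CPM per kb in WT and 0.128 to 0.863 in MYC-KI. The membrane-bound enzymes together held 11.3% and 10.5% of the summed level in WT and 7.66% and 7.24% in MYC-KI, and the share of *Car9* alone was 10.3% and 9.66% against 5.69% and 4.84%. The share of *Car8* was 0.982% and 0.995% in WT and 2.58% and 2.02% in MYC-KI.

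**Figure D4:**
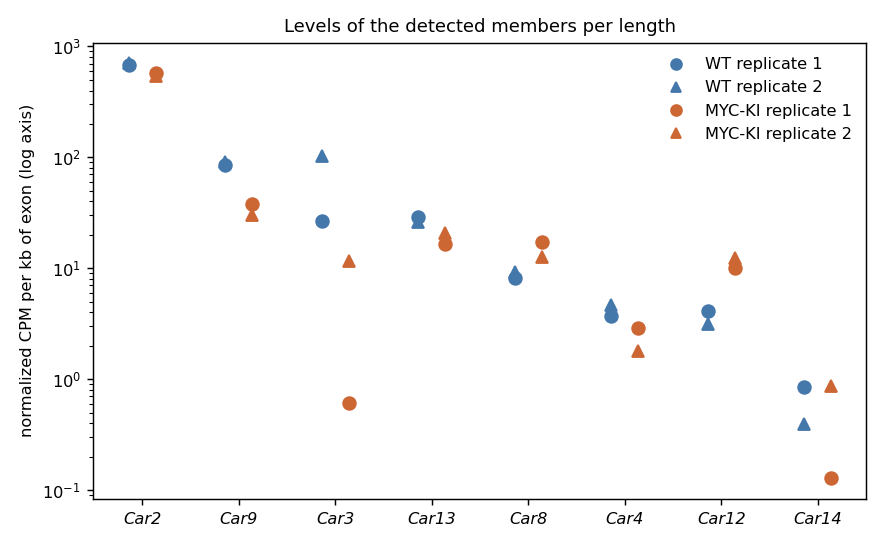
Normalized CPM per kb of merged exon for the 8 detected members in each library, on a log axis, ordered by the WT mean. *Car2* lay at 537 to 702 CPM per kb, *Car12* moved from 3.16 to 4.1 in WT to 10 to 12.4 in MYC-KI, and *Car3* spanned 0.607 to 103.

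The other genes of the family with a row in the table are the mitochondrial enzymes *Car5a* and *Car5b*, the secreted *Car6*, the cytosolic *Car7*, the acatalytic *Car10* and *Car11*, the lipid-anchored *Car15*, and *Ptprg* and *Ptprz1*, receptor tyrosine phosphatases with a carbonic anhydrase-like domain outside the cell. Of these 9 genes 5 were tested, 0 were called higher (background 5.65%) and 2 were called lower (40%, background 5.08%), with a median log2 fold change of -0.60. *Car5b* was at 42 and 54.9 CPM in WT and 15.7 and 15.4 CPM in MYC-KI. It fell 3.12-fold without overlap (log2 fold change -1.64, SE 0.16; adjusted p = 0.0198 in edgeR). *Car5b* lies on chromosome X, and within 1 sex, without WT replicate 2, its log2 fold change was -1.44 (adjusted p = 0.232). *Ptprg* was at 64.8 and 62.5 CPM in WT and 44.1 and 39.8 CPM in MYC-KI. Its log2 fold change of -0.60 (SE 0.09, adjusted p = 0.0325 in edgeR) was just past the threshold, and with library size alone (-0.38) and without MYC-KI replicate 2 (-0.53) it was no longer called.

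The remaining relatives were scarce. *Ptprz1* had 54 to 234 counts (log2 fold change -0.85, adjusted p = 0.392), *Car7* 40 to 49 (-0.45, adjusted p = 0.481) and *Car11* 52 to 102 (0.26, adjusted p = 0.646). *Car6*, the salivary isoform, had 0 counts in every library, and *Car5a*, *Car10* and *Car15* had at most 18, 9 and 5 counts and were not tested. *Car15* shares 1253 exon bases with *Gm20518* on the same strand, which makes its count uncertain.

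The genes that handle the acid and base made by these enzymes were examined next. Of 17 genes of parietal acid secretion, 13 were called lower (76.5%, background 5.08%) and 0 higher (background 5.65%), with a median log2 fold change of -3.60. The potassium channel gene *Kcnj16* (-5.96, adjusted p = 0.00975), the pump subunit genes *Atp4b* (-5.82, adjusted p = 0.00635) and *Atp4a* (-5.59), the channel subunit gene *Kcne2* (-5.36, adjusted p = 0.00447), the histamine receptor gene *Hrh2* (-5.26, adjusted p = 0.0213) and the water channel gene *Aqp4* (-3.86, adjusted p = 0.0133) fell most among those called. The log2 fold change of *Car2*, by comparison, was -0.30.

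Of 14 bicarbonate and chloride exchangers and channels, 11 were tested and 1 was called, lower (9.09%, near the background of 5.08%), with a median log2 fold change of -0.01. The called gene was *Slc4a2*, the basolateral anion exchanger of the parietal cell, through which the bicarbonate made with the secreted acid leaves. Its counts were 21131 and 17055 in the WT libraries and 6160 and 7826 in the MYC-KI libraries, and it fell from 620.5 ± 13 to 178 ± 4.54 CPM (log2 fold change -1.80, SE 0.08; adjusted p = 0.00975 in edgeR). Its log2 fold change lay between those of *Atp4a* and *Car9*.

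Of 9 genes of proton and lactate export, 1 was called higher (11.1%, background 5.65%) and 2 were called lower (22.2%, background 5.08%), with a median of -0.55. *Slc16a1*, a lactate transporter that moves a proton with each lactate, rose (log2 fold change 1.06, adjusted p = 0.0188), and the related *Slc16a7* fell (-2.53, adjusted p = 0.0175), as did the sodium-proton exchanger gene *Slc9a2* (-1.11, adjusted p = 0.0232).

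Because *Car9* and *Car12* are known as hypoxia-responsive in other tissues, 20 further genes of the hypoxia response were read beside them. Of these, 2 were called higher (10%, background 5.65%) and 4 lower (20%, background 5.08%), with a median of -0.03. With library size alone the balance turned, to 4 called higher and 3 lower. *Pfkfb3* (-1.86, adjusted p = 0.0228), *P4ha2* (-1.42, adjusted p = 0.0228), *Adm* (-1.10, adjusted p = 0.0431) and *Epas1* (-0.68, adjusted p = 0.0255) fell, and *Egln3* (0.81, adjusted p = 0.04) and *Hif1a* (0.65, adjusted p = 0.0228), which encode an oxygen-sensing hydroxylase and an oxygen-regulated transcription factor, rose. *Adm* was no longer called without MYC-KI replicate 1 (adjusted p = 0.0756) or replicate 2 (adjusted p = 0.0642), and *Epas1* was not called with library size alone (-0.46). The other 14 genes of the list were not called, among them *Vegfa* (-0.13, adjusted p = 0.61 in edgeR) and *Slc2a1* (0.44, adjusted p = 0.088).

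**Figure D5:**
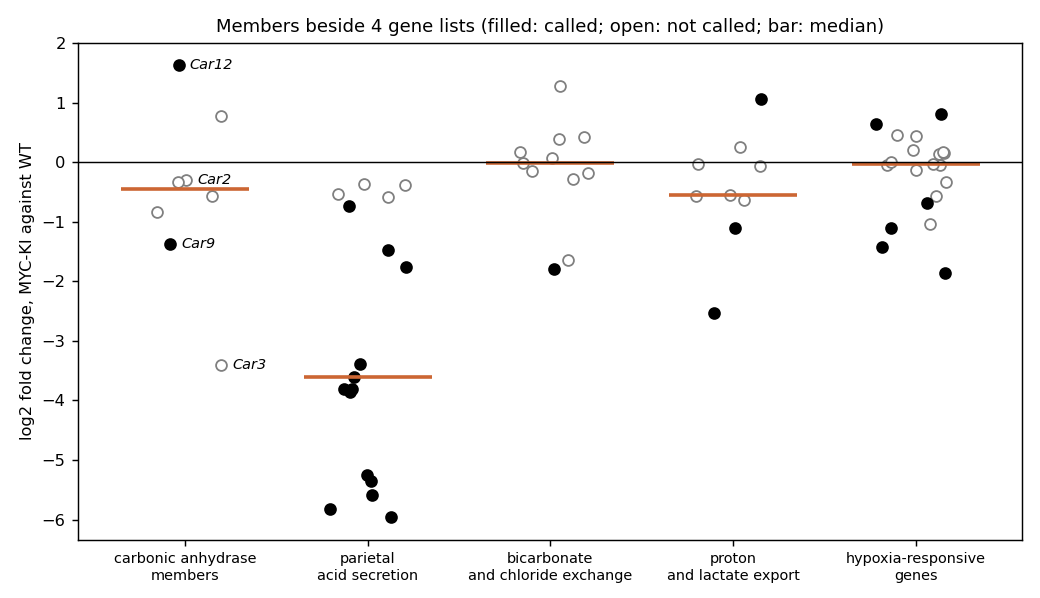
Log2 fold change of MYC-KI against WT for each tested gene of the 9 members and of 4 gene lists, with called genes filled and the median as a bar. The median was -0.44 over the members tested, -3.60 over parietal acid secretion, -0.01 over bicarbonate and chloride exchange, -0.55 over proton and lactate export and -0.03 over the hypoxia-responsive genes.

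The promoters were read for the letters bound by hypoxia-inducible factors (ACGTG or GCGTG) and by MYC (CACGTG, with which ACGTG overlaps), on both strands of the 250 bases before the start in RefSeq (GRCm38.p6). Of the 9 members, 4 had an entry, *Car4*, *Car9*, *Car12* and *Car14*, and none of the 4 held CACGTG, which 6.0% of 32851 promoters hold. ACGTG or GCGTG, found in 38.6% of promoters, occurred once in *Car9* and once in *Car14* and not in *Car4* or *Car12*. The 30 bases around the match in *Car9* (chr4:43506995-43507024, plus strand) are shown because *Car9* was called, with the match in capitals, read as ACGTG on the minus strand, 18 bases before the RefSeq start. That start lies downstream of the first base of *Car9* in GENCODE (43506966), so the stretch falls inside the gene as GENCODE annotates it.
Car9 promoter: cctatttccgatgCACGTacagcccgtcca
*Car1*, *Car2*, *Car3*, *Car8* and *Car13* are named only.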

How the data were processed

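Stomach RNA of 2 WT and 2 MYC-KI samples was read from 1 table of raw counts per gene, which the authors deposited without normalization. The submitters' processing notes name HISAT2 and mm10, and the counting tool is not given in the sources used here. Samples were grouped by their genotype labels. Both MYC-KI columns were re-sorted by gene name as described above, a step that uses no count value. Members and gene lists were chosen with earlier results of these data known.

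Counts were tested in edgeR 4.0.16 (R 4.3.3; TMM, filterByExpr, glmQLFit, glmQLFTest, Benjamini-Hochberg adjustment over all genes tested), with the thresholds of the study's methods and no covariates. The root of the common dispersion was 0.295. Replicates differed by more than counting noise (chi-square per degree of freedom 28.9 in WT and 97.9 in MYC-KI). The limit of 3 counts at a count of 0 covers counting error only. The scripts were tested on simulated data. Count ratios were compared with exact permutation tests.

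All members and measured relatives are named. Of each pathway list the called genes were named, at most 6, by absolute log2 fold change, and of each marker list the 2 most abundant genes. *Vegfa*, *Slc2a1* and *Adipoq* were named after their values were seen. Positions and exon lengths are from GENCODE M21 (GRCm38), and promoters from RefSeq (GRCm38.p6). Alternatives were the size factors of DESeq2, library size alone, no filter, at least 10 counts in every sample, DESeq2 1.42.0, a log2 threshold of 1, a replicate block, the names as deposited, and each sample left out.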

Additional observations from a re-analysis of the deposited data

How the results depend on the processing

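With names as deposited, 7 of the members tested, 7 of the relatives, 14 acid secretion genes, 11 exchangers, 8 export genes and 16 hypoxia-responsive genes were called, among 18580 genes in all, against 2, 2, 13, 1, 3 and 6 among 1892 after re-sorting. The log2 fold change then had the opposite sign for *Car4* (3.44), *Car8* (-0.86), *Car14* (7.54), *Car7* (9.84), *Ptprg* (1.01), *Ptprz1* (2.03), *Slc16a1* (-15.09) and *Hif1a* (-0.43), since these counts belong to other genes.

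Replicate numbers are shared between the genotypes, but same-numbered samples did not deviate together (r = 0.0639 over 17643 genes). With the replicate block edgeR called 114 genes in all (5178 at an unadjusted p under 0.05). These held 10 acid secretion genes, 1 exchanger and 0 members, relatives, export or hypoxia-responsive genes. *Hrh2* was not called with the block (-5.42, adjusted p = 0.0541). Of the members 5 were at an unadjusted p under 0.05, with *Car9* at -1.38 (adjusted p = 0.0545) and *Car12* at 1.63 (adjusted p = 0.0607).

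Leaving out 1 sample moved the calls to between 0 and 5 members, 0 and 2 relatives, 0 and 14 acid secretion genes, 0 and 2 exchangers, 0 and 5 export genes, 0 and 7 hypoxia-responsive genes and 0 and 2470 genes in all, the zeros without either WT replicate. *Car14* ranged from -2.28 to 0.46. The lone sample was assumed to vary like the other group. Library size alone called 3011 genes, 75.5% of them higher against 52.6% with TMM, with 1 relative, 3 members (2 higher and 1 lower, with *Car8* added) and 7 hypoxia-responsive genes (4 higher and 3 lower), and it moved the median of all genes tested to 0.23. DESeq2 called 3224 genes. With a log2 threshold of 1, 1113 genes in all, 1 relative and 3 hypoxia-responsive genes were called. The cause was not tested for any of these. *Car9* and *Car12* were called with each other scaling, filter and threshold and with DESeq2 (adjusted p = 2.35e-14 and 3.89e-12). With 2 samples per genotype, changes near the threshold such as those of *Car8* and *Car13* were not settled.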
